A study of Mus musculus with 6 samples.

Results

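The mouse mitochondrial genome carries 37 genes, and all 37 were found in the 6 count tables by their symbols, which start with mt-. They are 13 protein-coding genes, 2 ribosomal RNA genes and 22 transfer RNA genes, out of 52636 genes listed. Libraries came from total RNA of the parotid gland, a salivary gland, of FVB mice, an inbred strain, aged 28 days. Of the 6 libraries, 3 were from irradiated mice, given 1 dose of 5 Gy, and 3 were from untreated mice. How long after the dose the glands were taken is not stated in the labels, nor do they say that each library came from a separate animal. P-values therefore measure the spread between these libraries.

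Mitochondrial DNA is transcribed from both strands into long precursors that cover nearly the whole genome. The transfer RNAs sit between the other genes and are cut out, which frees the messenger and ribosomal RNAs. The messenger RNAs encode core subunits of respiratory complexes I, III and IV and of the ATP synthase (complex V), and the ribosomal and transfer RNAs serve the translation of these messengers inside the organelle. The light-strand transcript carries a single messenger, mt-Nd6, beside 8 of the transfer RNAs, while the other 12 messengers and both ribosomal RNAs lie on the heavy-strand transcript. In salivary glands the cells of the striated ducts are known for their many mitochondria, while acinar cells, which secrete the saliva proteins, make up most of the gland.

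The libraries held 7108359 to 15036193 counts in genes, with the lowest depth in irradiated replicate 2. That library also had 10.01% of its reads in the row of unaligned reads, against 3.75% to 4.33% elsewhere. Its row of reads with low alignment quality held 184 reads, against 342749 to 491591 in the other 5 libraries. All 10 acinar markers checked were present, with a summed level of 413849 to 535447 CPM (counts relative to library size, adjusted by the TMM factor) in irradiated and 467596 to 558759 CPM in untreated libraries. Of the 9 acinar markers tested, 1 was called lower in irradiated glands. For some other cell types the summed marker levels did not overlap between the groups, narrowly so for duct, skeletal muscle and macrophage markers. Among all single genes tested, 10.6% did not overlap in each direction, and 1.00% were called. Lower in irradiated libraries were the sums of 6 duct markers (1627 to 1874 CPM, against 1905 to 2244 CPM in untreated libraries), 10 skeletal muscle markers (192.4 to 599 against 604 to 760 CPM) and 5 macrophage markers (59.1 to 66.3 against 66.7 to 77.3 CPM), and no single marker of these lists passed. Higher in irradiated libraries were the sums of 7 T cell markers (23.2 to 33.0 CPM, against 0.962 to 10.3 CPM in untreated libraries, 2 markers called), 5 B cell markers (25.1 to 25.9 against 0.350 to 12.6 CPM, 1 called) and 4 endothelial markers (61.7 to 77.5 against 53.3 to 58.8 CPM, 0 called). The sums for fat, brown fat, fibroblast and red blood cell markers overlapped. Their part in the results was not tested, and in whole tissue fewer cells of a type cannot be told apart from less RNA per cell.

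A stretch of the mitochondrial genome has a near-identical copy on chromosome 1, and this sets what several of the members' counts can show. In a sequence search of the 37 members against all annotated transcripts (GENCODE M21, build mm10), 7 gene models on chromosome 1 matched at 99% identity or more. They are unprocessed pseudogenes on the minus strand, and their matched parts together run over chr1:24611535-24616188, 4654 bases, in the same order as chrM:6390-11042, 4653 bases. The stretch takes in the last part of mt-Co1, all of mt-Co2, mt-Atp8, mt-Atp6, mt-Co3, mt-Nd3 and mt-Nd4l, and the first part of mt-Nd4. Over the aligned bases the chromosome 1 models of mt-Co2 (Gm28661, 681 bases), mt-Atp6 (Gm10925, 678), mt-Co3 (Gm28437, 783), mt-Nd4l (Gm10222, 294) and mt-Nd4 (Gm28439, the first 876 of 1378) were letter for letter the same. The models of mt-Nd3 (Gm28438, 345 bases) and mt-Co1 (Gm29216, 483 bases) each differed at 1 base. A read inside the stretch can therefore be given to the mitochondrial gene, to the chromosome 1 model, or to the row of reads with more than 1 place.

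Both differing bases are shown in capitals below, because over the aligned bases of mm10 they are the only letters that separate these 7 pairs of gene models. Whether the FVB mice used here carry the same letters at either place was not tested. With positions counted from 1 at the first base of the mitochondrial gene, the substitution from gene to copy is T3C in mt-Nd3 (chrM position 9461) and A1066T in mt-Co1 (chrM position 6393). The windows are chrM:9459-9481 and chrM:6390-6413 on the plus strand, and chr1:24613097-24613119 and chr1:24616165-24616188 on the minus strand, all mm10.
mt-Nd3: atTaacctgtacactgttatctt
Gm28438: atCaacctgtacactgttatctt
mt-Co1: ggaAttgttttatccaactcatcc
Gm29216: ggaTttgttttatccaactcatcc

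The libraries differed in which side of each pair received the counts. Over the 5 genes with a full-length model (mt-Co2, mt-Atp6, mt-Co3, mt-Nd3 and mt-Nd4l), irradiated replicate 1 had 86089 counts at the mitochondrial genes and 797 at the models, so that 99.08% stood at the mitochondrial side (95% Wilson interval 99.02% to 99.14%). Irradiated replicate 2 had 12070 and 262 counts, a share of 97.9% (97.6% to 98.1%). Irradiated replicate 3 had 1261 and 66594 counts, a share of 1.86% (1.76% to 1.96%). In the untreated group, replicate 1 had 20241 and 754 counts, a share of 96.4% (96.1% to 96.7%). Untreated replicate 2 had 1489 and 53004 counts, a share of 2.73% (2.60% to 2.87%), and untreated replicate 3 had 1511 and 6308 counts, a share of 19.3% (18.5% to 20.2%). Each group thus held libraries at both ends, and the intervals cover counting error only.

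**Figure D1:**
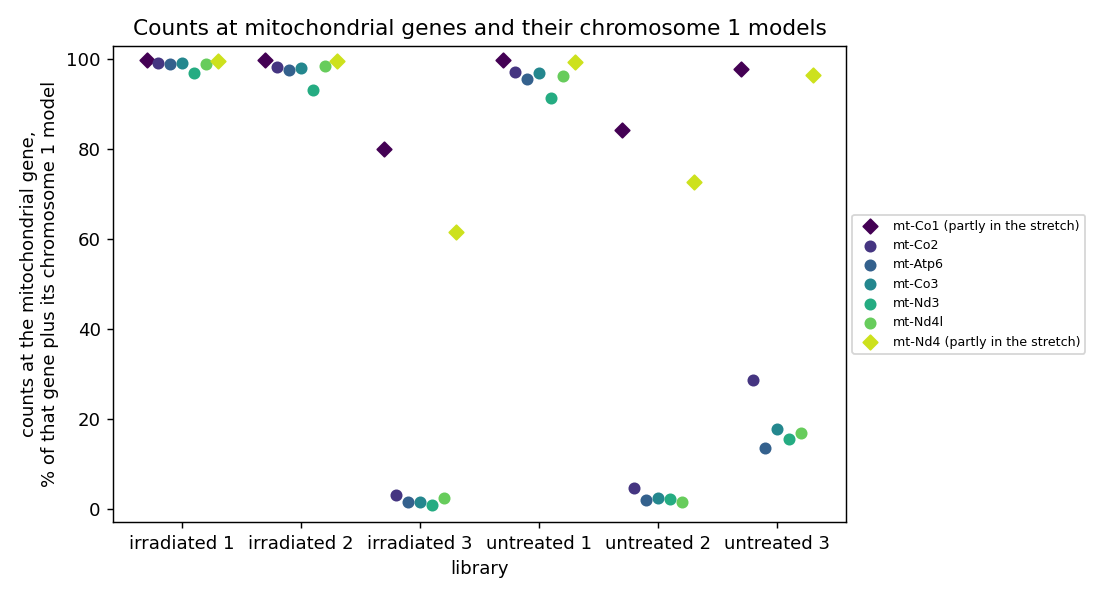
Counts at each mitochondrial gene as a percentage of that gene plus its chromosome 1 model (vertical axis) in each of the 6 libraries (horizontal axis), with 1 point for each of the 7 pairs. Irradiated replicates 1 and 2 and untreated replicate 1 sit near the top for every pair. Irradiated replicate 3 and untreated replicate 2 sit near 0 for the 5 pairs with a full-length model, and untreated replicate 3 lies between 13.4% and 28.6% for these.

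The 5 pairs moved together within a library. The share at the mitochondrial side ran from 97.0% to 99.3% over the pairs in irradiated replicate 1, from 93.2% to 98.5% in irradiated replicate 2 and from 0.755% to 3.06% in irradiated replicate 3. In the untreated group it ran from 91.5% to 97.1% in replicate 1, from 1.59% to 4.67% in replicate 2 and from 13.4% to 28.6% in replicate 3. The genes that lie partly in the stretch followed with smaller swings. The chromosome 1 model matches 483 of the 1545 bases of mt-Co1 and 876 of the 1378 bases of mt-Nd4. For mt-Co1 the share was 99.81%, 99.90% and 80.04% in irradiated replicates 1, 2 and 3, and 99.82%, 84.2% and 97.9% in untreated replicates 1, 2 and 3. For mt-Nd4 it was 99.63%, 99.57% and 61.6% in the irradiated replicates and 99.52%, 72.7% and 96.6% in the untreated ones.

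Adding both sides did not even out the libraries. Per 100 counts of the 5 messengers outside the stretch (mt-Nd1, mt-Nd2, mt-Nd5, mt-Nd6 and mt-Cytb), the 5 pairs together gave 63.2, 19.6 and 59.7 counts in irradiated replicates 1, 2 and 3, and 18.3, 42.2 and 5.56 counts in untreated replicates 1, 2 and 3. The row of reads with more than 1 place held 13.33%, 18.4% and 13.32% of all reads in irradiated replicates 1, 2 and 3, and 13.6%, 15.6% and 16.0% in the untreated ones. Irradiated replicates 1 and 3 had the highest sums and the smallest such rows, but the other libraries did not follow this order. Untreated replicate 1 had nearly as small a row, 13.6%, and a sum of 18.3. Irradiated replicate 2 had the largest row, 18.4%, and a sum of 19.6, above the 5.56 of untreated replicate 3. How many reads of that row came from the stretch was not tested, since the tables give the row as a total.

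**Figure D2:**
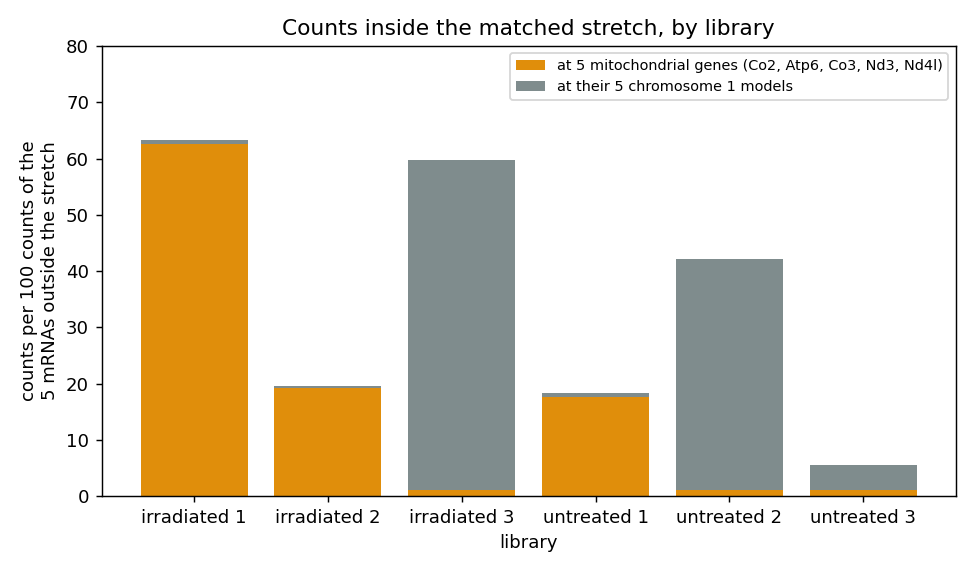
Counts at 5 mitochondrial genes inside the stretch (lower, orange part of each bar) and at their chromosome 1 models (upper, grey part), per 100 counts of the 5 messengers outside the stretch, in each library. The bars reach 63.2, 19.6 and 59.7 in irradiated replicates 1, 2 and 3 and 18.3, 42.2 and 5.56 in untreated replicates 1, 2 and 3, and are almost all orange in irradiated replicates 1 and 2 and untreated replicate 1.

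The 6 messengers wholly inside the stretch had the widest spread of all members. mt-Co2, the copper-binding subunit of cytochrome c oxidase (complex IV), had 25291, 3188 and 530 counts in irradiated replicates 1, 2 and 3, against 5935, 673 and 644 counts in untreated replicates 1, 2 and 3. mt-Co3, the third mitochondrially encoded subunit of that complex, had 28410, 4328 and 296 counts in the irradiated libraries, against 6922, 383 and 433 in the untreated ones. In both genes the high libraries were irradiated replicates 1 and 2 and untreated replicate 1, and the groups overlapped. mt-Atp6, the proton-channel subunit of the ATP synthase, had 26511, 3548 and 358 counts in the irradiated libraries, against 6011, 366 and 347 in the untreated ones. mt-Atp8, a small membrane subunit of the same enzyme, had 3596, 769 and 42 counts against 798, 36 and 54. For the complex I subunits the same 3 libraries were the highest. mt-Nd3 had 2543, 400 and 16 counts in irradiated libraries, against 645, 39 and 45 counts in untreated ones, and mt-Nd4l had 3334, 606 and 61 counts against 728, 28 and 42. Between the highest and lowest library the CPM differed 39.2-fold for mt-Co2 and 122.6-fold for mt-Nd3, with the other 4 genes in between.

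mt-Atp8 and mt-Atp6 also share bases. Their reading frames overlap on the same strand by 43 bases, shown in capitals, from the start codon of mt-Atp6 to the stop codon of mt-Atp8 (chrM:7907-7989, plus strand, mm10).
mt-Atp8 and mt-Atp6: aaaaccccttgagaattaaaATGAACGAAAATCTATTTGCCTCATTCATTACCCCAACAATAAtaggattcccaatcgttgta
A read that covers these bases belongs to both genes, and the rule by which such reads were counted is not given in the sources used here. No annotated chromosome 1 model matched the rest of mt-Atp8, and the genome sequence between the models was not searched here. mt-Nd4l and mt-Nd4 overlap in the same way by 7 bases.

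Irradiated glands were then compared with untreated ones to ask whether mitochondrial transcripts differ after radiation. The quasi-likelihood test of edgeR was run on 12885 genes, with p-values adjusted by Benjamini-Hochberg over all of them. Of these genes 1.00% passed the threshold of 0.05, 0.652% as higher and 0.349% as lower in irradiated glands, and 0 of the 17 members tested passed. The balance over all genes depended on the scaling, with 84 genes higher and 45 lower here, and 260 and 22 by library totals alone. It was 68 and 20 scaled to the 13 messengers, and 339 and 23 scaled to the 5 messengers outside the stretch. By library totals 0 members passed. Scaling to messengers makes the sum of those members equal in all libraries, so it cannot show a change that they share. The 17 are the 13 messengers, the 2 ribosomal RNAs and 2 transfer RNAs, and the lowest adjusted p among them was 0.264. DESeq2 and limma-voom also called 0. At an unadjusted p under 0.05 there were 4 members by edgeR (mt-Nd2, mt-Nd6, mt-Tc and mt-Tp), where the share of all genes was 15.0%. The 6 messengers inside the stretch had log2 fold changes, irradiated over untreated, of 1.84 (SE 1.74) for mt-Co2 to 2.22 (SE 1.95) for mt-Atp8. Each had an error about as large as the value, and the edgeR adjusted p values ran from 0.678 to 0.735. Without irradiated replicate 1 these 6 values lay between 0.12 and 0.98, and without untreated replicate 1 between 3.79 and 5.24, and none passed in either case.

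With the counts of nuclear models added to their mitochondrial genes, the fold changes of 5 of these 6 shrank. They were then 0.86 (SE 0.98) for mt-Co2, 0.86 (SE 1.11) for mt-Atp6, 0.93 (SE 1.00) for mt-Co3, 0.81 (SE 0.97) for mt-Nd3 and 1.16 (SE 0.97) for mt-Nd4l, with edgeR adjusted p values of 0.666 to 0.790. mt-Atp8, with no model to add, stayed at 2.23 (SE 1.92). The 7 chromosome 1 models themselves had log2 fold changes of 0.09 to 0.39 with errors of 2.09 to 2.72, and none passed.

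**Figure D3:**
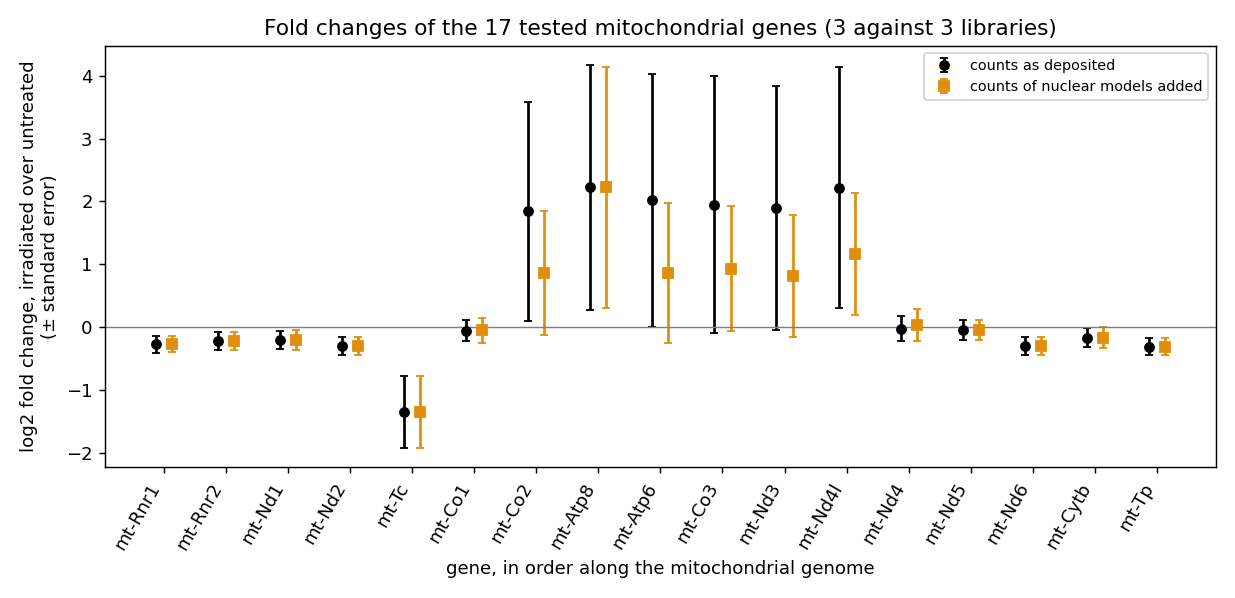
Log2 fold change of irradiated over untreated libraries (vertical axis, with standard error) for the 17 tested members in genome order (horizontal axis), from the deposited counts (circles) and with counts of nuclear models added (squares). The 6 genes inside the stretch stand at 1.84 to 2.22 with wide errors from the deposited counts, while the members outside it, mt-Tc apart, stand between -0.31 and -0.04.

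Outside the stretch the libraries were much closer, and no chromosome 1 model matches the 5 messengers there. All 5 had a negative log2 fold change, as did both ribosomal RNAs, and none of the 7 passed. Negative values were held by 50.9% of all genes tested. They were held by 1811 of 2564 nuclear genes of limited length and by 49 of 71 abundant nuclear genes, as defined below. Both sets include gene models that match mitochondrial genes, such as Gm10925 and Gm28437. Summed duct, skeletal muscle and macrophage markers were also lower in irradiated libraries, while T cell, B cell and endothelial sums were higher. Any link to these was not tested. mt-Cytb, the cytochrome b subunit of complex III, stood at 3182, 2554 and 3279 CPM in irradiated replicates 1, 2 and 3, against 3127, 3829 and 3181 CPM in untreated replicates 1, 2 and 3. Its log2 fold change was -0.17 (SE 0.16; edgeR adjusted p = 0.662), and the groups overlapped. mt-Nd1, a core subunit of complex I, had 2051, 1710 and 2141 CPM in irradiated libraries against 2134, 2551 and 2127 in untreated ones, a log2 fold change of -0.21 (SE 0.15; edgeR adjusted p = 0.566). mt-Nd5, a proton-pumping subunit of complex I, had 1915, 1567 and 2208 CPM against 1881, 2226 and 1761, a log2 fold change of -0.04 (SE 0.16; edgeR adjusted p = 0.933). In these 3 genes irradiated replicate 2 was the lowest of the 6 libraries.

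mt-Nd2 and mt-Nd6, also complex I subunits, were the messengers whose groups did not overlap in CPM, both lower in irradiated glands. This held for 10.6% of all genes tested in that direction. mt-Nd2 had 1283, 1153 and 1434 CPM in irradiated replicates 1, 2 and 3, against 1509, 1769 and 1499 CPM in untreated replicates 1, 2 and 3, with a log2 fold change of -0.30 (SE 0.14; edgeR adjusted p = 0.328). mt-Nd6 had 722, 570.1 and 744 CPM in irradiated libraries, against 767, 926 and 821 CPM in untreated ones, with a log2 fold change of -0.30 (SE 0.14; edgeR adjusted p = 0.316). Neither difference passed the test across all genes. By library totals alone, without the TMM factor, the groups of mt-Nd6 overlapped. It then held 10849 of 14454646 counts in irradiated replicate 1, a larger part than 9318 of 12787135 in untreated replicate 1.

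These differences were set beside those of nuclear genes chosen by an upper limit of length or a lower limit of abundance. The sets were not matched to the members beyond that limit. The median log2 fold change was -0.22 over the 7 members outside the stretch, -0.17 over 2564 nuclear genes whose longest transcript is no longer than the longest member (1824 bases), and -0.16 over 71 nuclear genes at least as abundant as the lowest of the 7. Over all genes tested it was -0.01. With only library totals as the scale, that median stood at 0.14. There mt-Nd5 was at 0.10, mt-Co1 at 0.09 and mt-Nd4 at 0.12, so these 3 changed sign.

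mt-Co1 and mt-Nd4, which lie partly in the stretch, had fold changes near 0, and their groups overlapped. mt-Co1, the catalytic subunit of cytochrome c oxidase, was the most abundant member, at 7357, 4953 and 6220 CPM in irradiated replicates 1, 2 and 3, against 6333, 7134 and 5851 CPM in untreated replicates 1, 2 and 3. Its log2 fold change was -0.06 (SE 0.17; edgeR adjusted p = 0.910). mt-Nd4, a proton-pumping subunit of complex I, had 2240, 1220 and 1435 CPM against 1748, 1723 and 1508 CPM, a log2 fold change of -0.02 (SE 0.19; edgeR adjusted p = 0.972). In both genes irradiated replicate 1, the library with the most counts at the mitochondrial side of the stretch, was the highest and irradiated replicate 2 the lowest.

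Per length, the messengers outside the stretch differed in level, though all but mt-Nd6 lie on the heavy-strand transcript. In CPM per kilobase, mt-Cytb averaged 2627 ± 344 in irradiated and 2954 ± 341 in untreated libraries (SD, n = 3 each). mt-Nd1 followed at 2056 ± 238 and 2372 ± 254, mt-Nd6 at 1308 ± 182 and 1615 ± 156, mt-Nd2 at 1243 ± 135 and 1534 ± 147, and mt-Nd5 at 1040 ± 176 and 1072 ± 132, each with the irradiated value first. mt-Nd6 and mt-Nd2, next to each other in this order of levels, did not differ beyond their spread in either group. mt-Co1 stood above all of these, at 3998 ± 778 in irradiated and 4168 ± 420 in untreated libraries, although reads from its last part could be lost to the chromosome 1 model. Irradiated replicate 1, where 99.08% of the counts stood at the mitochondrial side, had 2462, 2592 and 2413 CPM per kilobase for mt-Co2, mt-Atp6 and mt-Co3, between its values for mt-Nd1 (2143) and mt-Cytb (2782). No other library had more than 727 for any of these 3 genes.

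**Figure D4:**
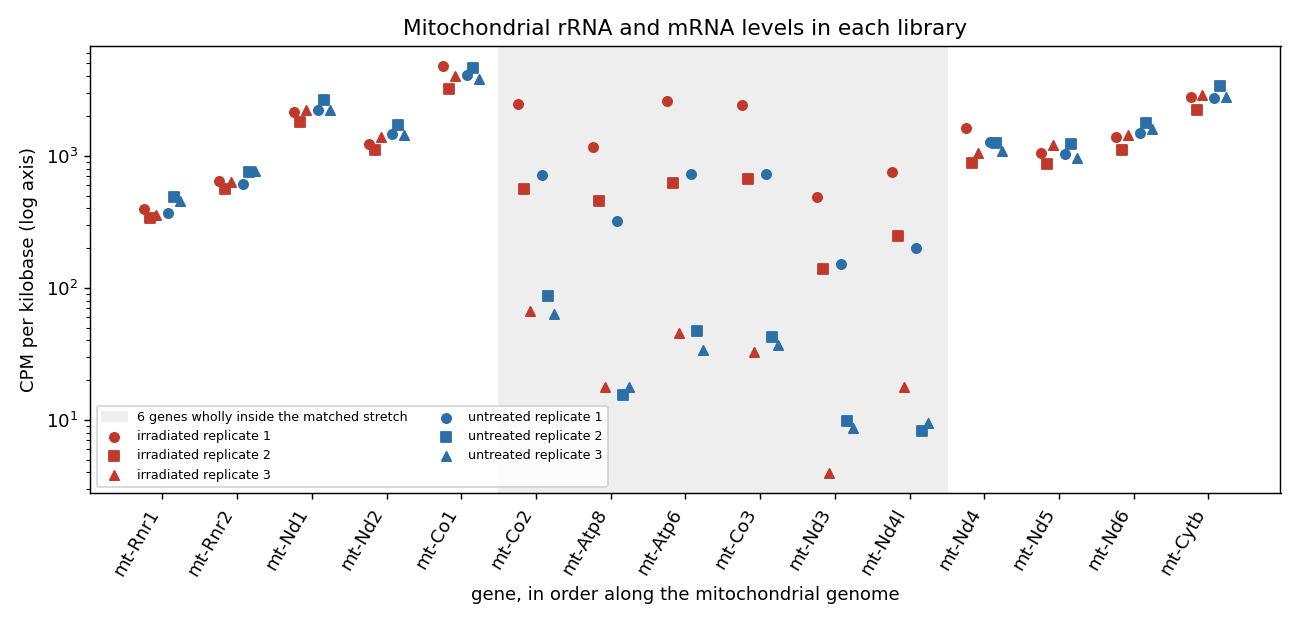
Level of the 2 ribosomal RNAs and 13 messengers in CPM per kilobase (vertical log axis) in genome order (horizontal axis), with 1 point for each library and irradiated libraries left of untreated ones. Points lie within 1.84-fold of each other for every gene outside the shaded block, and spread 39.2-fold to 122.6-fold for the 6 genes inside it.

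The ribosomal RNAs of the mitochondrial ribosome were lower per length than any messenger outside the stretch. The kit's protocol as labelled does not say which ribosomal RNAs were removed from the libraries, so these levels cannot be read as those of the tissue. mt-Rnr2, the large-subunit RNA, had 1018, 886 and 993 CPM in irradiated replicates 1, 2 and 3, against 967, 1196 and 1214 CPM in untreated replicates 1, 2 and 3. Its log2 fold change was -0.22 (SE 0.14; edgeR adjusted p = 0.496). mt-Rnr1, the small-subunit RNA, had 377, 323 and 337 CPM in irradiated libraries, against 354, 468 and 433 CPM in untreated ones, with a log2 fold change of -0.27 (SE 0.13; edgeR adjusted p = 0.343). For both, untreated replicate 1 lay among the irradiated libraries and the groups overlapped. The ratio of mt-Rnr1 to mt-Rnr2 counts was 0.358 ± 0.0162 in irradiated and 0.371 ± 0.0181 in untreated libraries (SD, n = 3 each; exact two-sided permutation p = 0.5).

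Taken as classes, the members held a small part of each library. The 13 messengers held 2.57%, 1.79% and 1.68% of the counts in genes in irradiated replicates 1, 2 and 3, and 1.83%, 1.82% and 1.68% in untreated replicates 1, 2 and 3 (exact two-sided permutation p = 0.9). Irradiated replicate 1 did not stand apart outside the stretch, where 5 messengers held 0.951%, 0.884% and 0.937% in irradiated libraries, and 0.895%, 1.016% and 0.936% in untreated ones (exact permutation p = 0.7). The 2 ribosomal RNAs held 0.138% ± 0.00947 in irradiated and 0.146% ± 0.0195 in untreated libraries (SD, n = 3 each; exact permutation p = 0.5). The 22 transfer RNAs held 0.00183% ± 0.000135 in irradiated and 0.00205% ± 0.000274 in untreated libraries (exact permutation p = 0.3). Counting error is small beside the spread between libraries, with a 95% Wilson half-width of at most 0.00974 percentage points for messengers and ribosomal RNAs.

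Relative to the other messengers outside the stretch, mt-Nd6, the light-strand messenger, was lower in every irradiated library. The strand setting of the counting is not given in the sources used here. Whether reads of the heavy-strand transcript entered the counts of mt-Nd6 was not tested. Its counts were 0.0857, 0.0816 and 0.0821 of those of the 4 heavy-strand messengers in irradiated replicates 1, 2 and 3, against 0.0886, 0.0893 and 0.0958 in untreated replicates 1, 2 and 3. The groups did not overlap, the log2 difference was -0.13, and the exact two-sided permutation p was 0.1, the smallest that 3 against 3 libraries allow. After Benjamini-Hochberg adjustment over the 10 class values compared it was 0.714. Against all 12 heavy-strand messengers the ratio was 0.0377 ± 0.00711 in irradiated and 0.0469 ± 0.00492 in untreated libraries (exact permutation p = 0.2), with the groups overlapping. Within the 5 messengers outside the stretch, mt-Nd2 made up 14.01% to 15.3% of counts in irradiated and 15.7% to 16.0% in untreated libraries, and mt-Nd5 made up 20.7% to 22.5% and 18.8% to 19.98%. Such shares depend on each other, since a higher share of 1 messenger lowers the rest. They were not tested and, like the ratio to the 4 messengers, were added after the counts were seen. mt-Nd1 and mt-Cytb kept overlapping shares, at 22.3% ± 0.409 and 34.0% ± 0.685 in irradiated, against 22.6% ± 0.0457 and 33.7% ± 0.389 in untreated libraries (SD, n = 3 each).

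**Figure D5:**
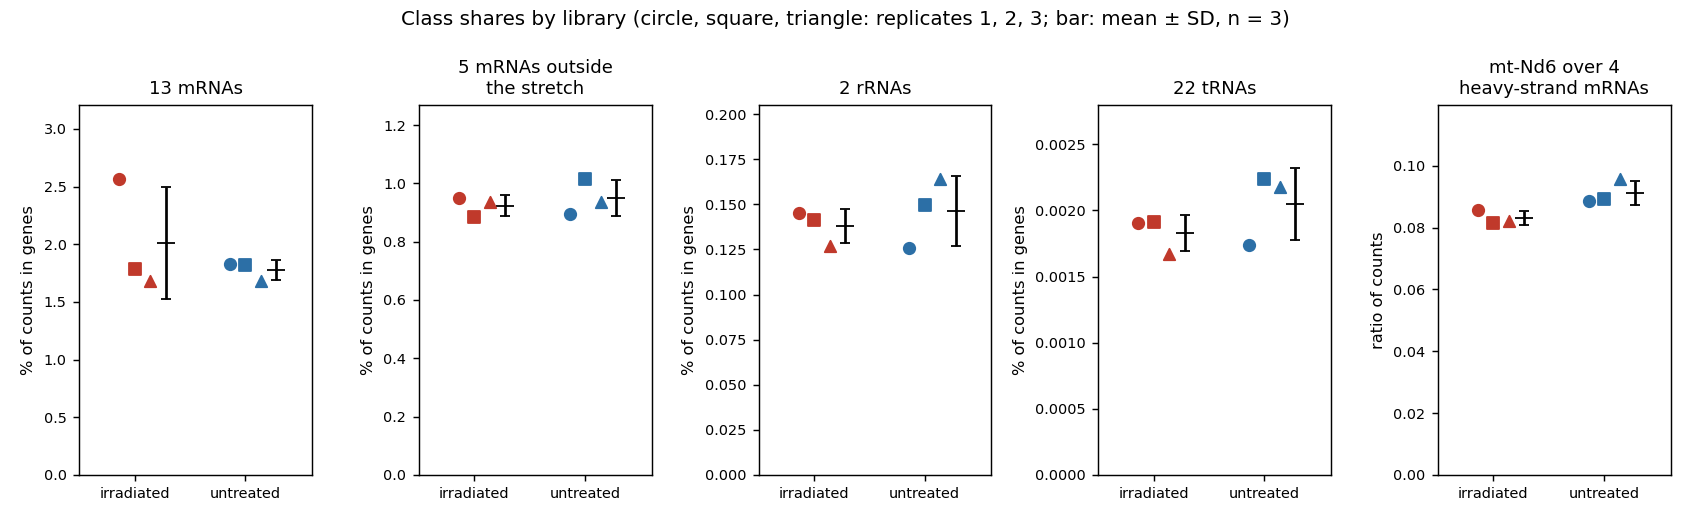
Percentage of counts in genes held by the 13 messengers, the 5 messengers outside the stretch, the 2 ribosomal RNAs and the 22 transfer RNAs, and the ratio of mt-Nd6 to the 4 heavy-strand messengers outside the stretch, in irradiated (left) and untreated (right) libraries, with mean ± SD (n = 3 each). Irradiated replicate 1 stands apart for the 13 messengers, at 2.57%, and the groups separate in the ratio of mt-Nd6, where the irradiated libraries lie at 0.0816 to 0.0857 and the untreated ones at 0.0886 to 0.0958.

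The transfer RNAs were almost absent from the counts. Of the 22 genes, 12 had 0 counts in all 6 libraries, where a count of 0 in 1 library allows up to 3 counts, or 0.2 to 0.422 CPM by library total. The other 10 held 1448 counts over all libraries, 1440 of them in the 8 genes of the light strand and 8 in the 14 of the heavy strand. mt-Tp, the transfer RNA for proline, took 93.2% of these counts, and its share was 91.9% to 93.8% in every library. These counts are of reads from libraries made for longer RNA and do not measure the mature transfer RNAs. Heavy-strand transfer RNA genes each overlap, touch or lie within 1 base of another gene on the same strand. A read over such a border can belong to more than 1 gene, and the rule for counting it is not given in the sources used here. The counts of the heavy and light strands therefore cannot be compared as levels.

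The 2 transfer RNA genes that passed the filter on low counts are both on the light strand. mt-Tp is the first gene of its transcript, with no annotated gene before it, and mt-Tc, the transfer RNA for cysteine, is followed by 32 bases free of genes before mt-Tn. The sequences of mt-Tp and mt-Tc are shown as those of the only transfer RNAs with a test (mt-Tp chrM:15356-15422 and mt-Tc chrM:5192-5257, minus strand, mm10).
mt-Tp: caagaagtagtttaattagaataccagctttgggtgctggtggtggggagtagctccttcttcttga
mt-Tc: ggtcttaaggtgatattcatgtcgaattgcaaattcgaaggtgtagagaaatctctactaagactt
mt-Tp had 258, 125 and 190 counts in irradiated replicates 1, 2 and 3, against 208, 263 and 306 counts in untreated replicates 1, 2 and 3. At 17.2, 15.0 and 16.4 CPM against 17.1, 23.0 and 20.4 CPM the groups overlapped narrowly, and the log2 fold change was -0.31 (SE 0.13; edgeR adjusted p = 0.278). mt-Tc had 6, 3 and 4 counts in irradiated libraries, against 11, 13 and 13 counts in untreated ones. The groups did not overlap, and the log2 fold change of -1.35 (SE 0.57; edgeR adjusted p = 0.264) rests on these few reads. Of the other transfer RNAs only mt-Tn, mt-Te and mt-Tl1 reached a mean of 1 count. mt-Tn had 3, 4 and 4 counts in irradiated and 2, 2 and 4 in untreated libraries, mt-Te had 5, 4 and 1 against 1, 2 and 4, and mt-Tl1 had 1, 0 and 3 against 0, 2 and 0. mt-Tq, the next, had a single count in irradiated replicate 1 and a single count in untreated replicate 2.

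Nuclear genes that copy, transcribe and process the mitochondrial genome were compared in the same test, by lists. Of 59 such genes measured over the 4 lists, 0 passed in either direction by edgeR, and 5 (8.47%) had an unadjusted p under 0.05, where the share of all genes tested was 15.0%. Among 9 genes of mitochondrial transcription the median log2 fold change was -0.12, with Tfb2m, a transcription initiation factor, at -0.12 (SE 0.17) and Tfam, which packages mitochondrial DNA and starts transcription, at 0.29 (SE 0.16). Among 11 genes of mitochondrial DNA replication and supply the median was 0.01, with Polg, the catalytic subunit of the mitochondrial DNA polymerase, at 0.13 (SE 0.13) and Twnk, the replicative helicase, at -0.23 (SE 0.16). Among 29 genes of RNA processing, modification and stability the median was 0.13, with Grsf1, an RNA-binding protein of mitochondrial RNA granules, at -0.14 (SE 0.11) and Rexo2, an exonuclease that removes short RNAs, at -0.14 (SE 0.11). Among 10 regulators of mitochondrial biogenesis the median was -0.02, with Yy1, a transcription factor, at -0.01 (SE 0.11) and Esrra, an orphan nuclear receptor, at 0.04 (SE 0.11).

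Groups did not overlap for 11 of the 59 genes, 6 with the irradiated libraries higher and 5 with them lower, or 10.2% and 8.47%. Over all genes tested the share was 10.6% in each direction. The next 3 genes were picked from the higher ones after their values were seen. Polrmt, the mitochondrial RNA polymerase, had 7.06, 8.66 and 7.68 CPM in irradiated replicates 1, 2 and 3, against 6.25, 5.42 and 6.40 CPM in untreated replicates 1, 2 and 3, with a log2 fold change of 0.36 (SE 0.19; edgeR adjusted p = 0.397). Ppargc1a, a coactivator that drives mitochondrial biogenesis, had 23.8, 20.6 and 26.3 CPM in irradiated libraries, against 13.7, 20.3 and 17.3 CPM in untreated ones, with a log2 fold change of 0.47 (SE 0.14; edgeR adjusted p = 0.115). Pnpt1, an RNA-degrading enzyme of mitochondria, had 10.99, 8.66 and 7.17 CPM against 5.35, 5.07 and 6.80 CPM, with a log2 fold change of 0.64 (SE 0.21; edgeR adjusted p = 0.135). None of these 3 passed. The 5 genes with the irradiated libraries lower also did not pass. Their log2 fold changes were -0.28 (SE 0.11) for Fastk, -0.38 (SE 0.44) for Ppargc1b and -0.30 (SE 0.21) for Mterf3. Trit1 was at -0.24 (SE 0.18) and Twnk at -0.23 (SE 0.16). Ppargc1b is in the same list as Ppargc1a, and Mterf3 in the same list as Polrmt.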

How the data were processed

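The deposited files are whole-number read counts per Ensembl gene, 1 table for each of the 6 libraries. HISAT2, HTSeq and the build mm10 are named in the submitters' processing notes; for versions, annotation release, strand setting and counting mode the entry is: not given in the sources used here. The kit is a stranded total RNA kit, per the labels' protocols. Rows that name no gene held 32.4% to 40.7% of reads and stayed out of library sizes and tests. The protocol text with the radiation dose stands on all 6 samples and was applied to the irradiated group alone.

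Members and coordinates came from GENCODE M21 (mm10), where 52403 of 52636 gene identifiers matched a symbol. Nuclear copies were searched among annotated transcripts with blastn (BLAST+ 2.17.0; at least 90% identity, 100 aligned bases and 50% of the copy). The mt- genes were tested with all genes by edgeR 4.0.16 (R 4.3.3) quasi-likelihood, robust, TMM, filterByExpr with minimum count 10, and Benjamini-Hochberg adjustment. SE is the fold change over the root of F. DESeq2 1.42.0 and limma 3.58.1 were alternatives. Class values were compared by exact permutation (scipy 1.17.1). The fit was tested on simulated data. Members and lists were chosen with earlier results of these data known; the comparisons of genes outside the matched stretch were added after the counts were seen. All 13 messengers, both ribosomal RNAs, the 6 transfer RNAs with most counts and 2 genes of each list without calls are named by rule. Same-numbered libraries did not deviate together (correlations of 0.02, -0.11 and -0.11), so numbers were not taken as pairs.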

Additional observations from a re-analysis of the deposited data

How the results depend on the processing

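In each of the 17 alternative settings 0 members passed, though scaling to members' own messengers cannot show a change that those messengers share. Of the 17 tested members, 13 kept the sign of their fold change throughout. The 13 include the 6 messengers inside the stretch, whose errors were about as large as their values. The other 4 were mt-Co1, mt-Nd4 and mt-Nd5, which stood close to 0 in the main test, and mt-Cytb at -0.17 (SE 0.16). By library totals alone the log2 fold change was 0.0861 for mt-Co1, 0.12 for mt-Nd4 and 0.10 for mt-Nd5. With nuclear copies added it was 0.0297 for mt-Nd4. Scaled to the 5 messengers outside the stretch, an alternative chosen after seeing the data, it was 0.12 for mt-Co1, 0.15 for mt-Nd4, 0.14 for mt-Nd5 and 0.015 for mt-Cytb. With 1 library left out the range was -0.20 to 0.0766 for mt-Co1, -0.32 to 0.15 for mt-Nd4 and -0.17 to 0.0776 for mt-Nd5. The log2 ratio of irradiated to untreated class shares with 1 library left out ranged from -0.0365 to 0.27 for the 13 messengers, -0.0789 to 0.0126 for the 5 outside the stretch, -0.19 to 0.00532 for the ribosomal RNAs, and -0.11 to 0.0518 for ribosomal RNAs over the 5 messengers. The cause of these changes of sign was not tested. With the replicate number as a block, 0 members passed, and 39 genes were higher and 14 lower over all genes, against 84 and 45 without it. Over all genes the counts were 279 and 239 with no filter, 21 and 5 with no robust shrinkage, 20 and 5 by limma-voom, 260 and 22 by library totals, 339 and 23 scaled to the 5 messengers, and, with 1 library left out, 31 and 14 without irradiated replicate 1 and 56 and 21 without untreated replicate 2. mt-Nd6 relative to the 4 heavy-strand messengers stayed below 0 without each library, from -0.16 to -0.0983. The 6 fold changes inside the stretch lay between 0.12 and 0.98 without irradiated replicate 1 and between 3.79 and 5.24 without untreated replicate 1. Depth does not limit the messengers, which outside the stretch had at least 4740 counts in every library, but it limits mt-Tc and the other transfer RNAs.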

Other observations

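A further 3 gene models on chromosome 2, less like their mitochondrial counterparts, also differed widely between libraries. Gm13341 (chr2:22587291-22587962), 95.9% identical to mt-Co2, had 32, 281 and 29 counts in irradiated replicates 1, 2 and 3 and 863, 47 and 98 counts in untreated replicates 1, 2 and 3. Gm13340 (chr2:22588103-22589647), 97.6% identical to mt-Co1 over its whole length, had 154, 450 and 1223 counts in the irradiated libraries and 1363, 767 and 408 in the untreated ones. Gm13339 (chr2:22590024-22590533), 96.7% identical to the second part of mt-Nd2, had 14, 137 and 171 counts in the irradiated libraries and 125, 90 and 55 in the untreated ones. Untreated replicate 1 and irradiated replicate 2, which held the most counts at Gm13341, were also the libraries on the mitochondrial side of the chromosome 1 pairs with the lower sums over both sides. Gm13340 and Gm13339 did not follow this. Irradiated replicate 3, on the chromosome 1 side, was the second highest for Gm13340 (1223 counts) and the highest for Gm13339 (171 counts). None of the 3 passed the edgeR test, at adjusted p values of 0.817, 0.937 and 0.878. Models matched to mt-Nd5, mt-Nd6 and mt-Cytb on chromosomes 4 and 13, at 92.3% to 95.2% identity, had at most 6 counts in any library.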
